A study of Rattus norvegicus with 9 samples.

Results

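miR-222-3p is the mature strand cut from the 3′ arm of the rat miR-222 hairpin. It was followed here in exosomes, the small vesicles that cells release, from rat primary peritoneal macrophages. It is 1 of 201 mature miRNAs in the deposited count table, and it was taken by its name, rno-miR-222-3p, from the read counts of the 9 libraries. It was chosen by its level in these libraries, known to be highest in the LPS group, so its levels are given as a description with no test. Tags, the distinct sequences with their read counts, were read from the files of single libraries, both under the labels mature and hairpin and, whatever the label, by their own letters.

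The macrophages came from untreated rats by peritoneal lavage and were kept in medium with fetal bovine serum. Control cultures received DMSO at 0.1% for 24 h. LPS cultures received lipopolysaccharide, a bacterial cell wall component that activates macrophages, at 100 ng/ml for 6 h, dissolved in DMSO. In the LPS+AS-IV group LPS followed 24 h of 150 µM astragaloside IV, a plant saponin, which was also dissolved in DMSO. Each group had 3 libraries of exosomal small RNA, and the labels do not say that they came from separate animals or cultures, so spreads and p-values cover only these samples and may be technical. The labels give a DMSO concentration for Control alone, so whether the vehicle matched between the groups is not known, and its part in any comparison with Control or between the treated groups was not tested. The comparisons ask how LPS altered the exosomal miRNAs and whether astragaloside IV countered it. The series title concerns another miRNA, miR-204-5p.

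A miRNA guides Argonaute proteins to messenger RNAs, mainly through its seed, bases 2 to 8 from the 5′ end, and lowers their translation and stability. miR-221 and miR-222 lie side by side on the X chromosome, come from a common primary transcript and share their seed. They are known for repressing Cdkn1b, a brake on the cell cycle, and Kit, a receptor of stem cell factor. In macrophages they are known to rise with prolonged LPS exposure and to take part in LPS tolerance, the muted response to a repeated stimulus.

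The sequences below are shown because the reads of miR-222-3p can be understood only beside the hairpin they come from. The hairpin Mir222 lies on the plus strand at chrX:6022621-6022723 in the RefSeq build GRCr8, where miR-222-3p takes chrX:6022682-6022702. Mir221 follows at chrX:6023182-6023290, after a gap of 458 bases. In the hairpin, capitals mark the 5p and 3p mature strands. In the mature strands, capitals mark the seed.
Mir222 hairpin: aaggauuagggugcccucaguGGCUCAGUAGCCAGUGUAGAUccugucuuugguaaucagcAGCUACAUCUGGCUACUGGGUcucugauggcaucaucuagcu
miR-222-3p: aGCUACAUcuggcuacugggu
miR-221-3p: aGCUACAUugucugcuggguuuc
The seed GCUACAU was held by 2 of the 693 rat mature miRNAs in the RefSeq table, miR-222-3p and miR-221-3p. The first 8 bases of the pair were identical, and 10 of the 21 positions compared without gaps differed, all from position 9 on. Reads of the pair can therefore be told apart by the letters after the seed.

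In the deposited table miR-222-3p was highest in the LPS group once its reads were scaled to the depth of the miRNA table, but not in raw reads. Its raw reads numbered 393, 125 and 591 in Control 1 to 3, 293, 888 and 655 in LPS 1 to 3, and 96, 555 and 1779 in LPS+AS-IV 1 to 3. The libraries differed in depth, with 15426 to 546599 reads in the miRNA table and 3484099 to 9527483 assigned reads in all. Levels are therefore given as CPM, counts per 1e6 reads of the miRNA table with edgeR's TMM factors.

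On the CPM scale the Control levels were 8485, 3734 and 7942. The LPS levels were 10543, 15202 and 10502. The LPS+AS-IV levels were 6924, 8460 and 3554. Each LPS library lay above each library of the other groups, and the Control and LPS+AS-IV libraries overlapped. The means were 6720 ± 2601 CPM for Control, 12082 ± 2702 CPM for LPS and 6313 ± 2510 CPM for LPS+AS-IV (SD, n = 3 per group).

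The order of the group levels was thus LPS, Control, LPS+AS-IV. The neighbours Control and LPS+AS-IV did not differ beyond their spread. The fitted log2 fold change was 0.85 in LPS against Control, a 1.8-fold higher level. It was -0.94 for LPS+AS-IV against LPS, a level 1.91 times lower, and -0.091 for LPS+AS-IV against Control. Of the 94 miRNAs with enough reads to be tested, 7.45% had every LPS library above every Control library and 11.7% had every one below. For LPS+AS-IV against LPS the shares were 4.26% above and 3.19% below, and for LPS+AS-IV against Control they were 5.32% above and 5.32% below. Every LPS library lay above both other groups in 1.06%, which is miR-222-3p alone. These shares stand beside a pattern that picked the miRNA, so nothing is read from them. edgeR's quasi-likelihood test called 1.06% of the 94 miRNAs in LPS against Control, 0% for LPS+AS-IV against LPS and 2.13% for LPS+AS-IV against Control (adjusted p under 0.05). The calls were let-7a-5p and miR-3596a, names between which the same tags switched in the deposited files.

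miR-222-3p lay in the upper part of the ranking by reads in every library. It stood at rank 25, 33 and 25 by reads among the 94 to 120 miRNAs detected per library in Control 1 to 3. Its rank was 19, 19 and 23 in LPS 1 to 3, and 29, 25 and 34 in LPS+AS-IV 1 to 3.

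**Figure D1:**
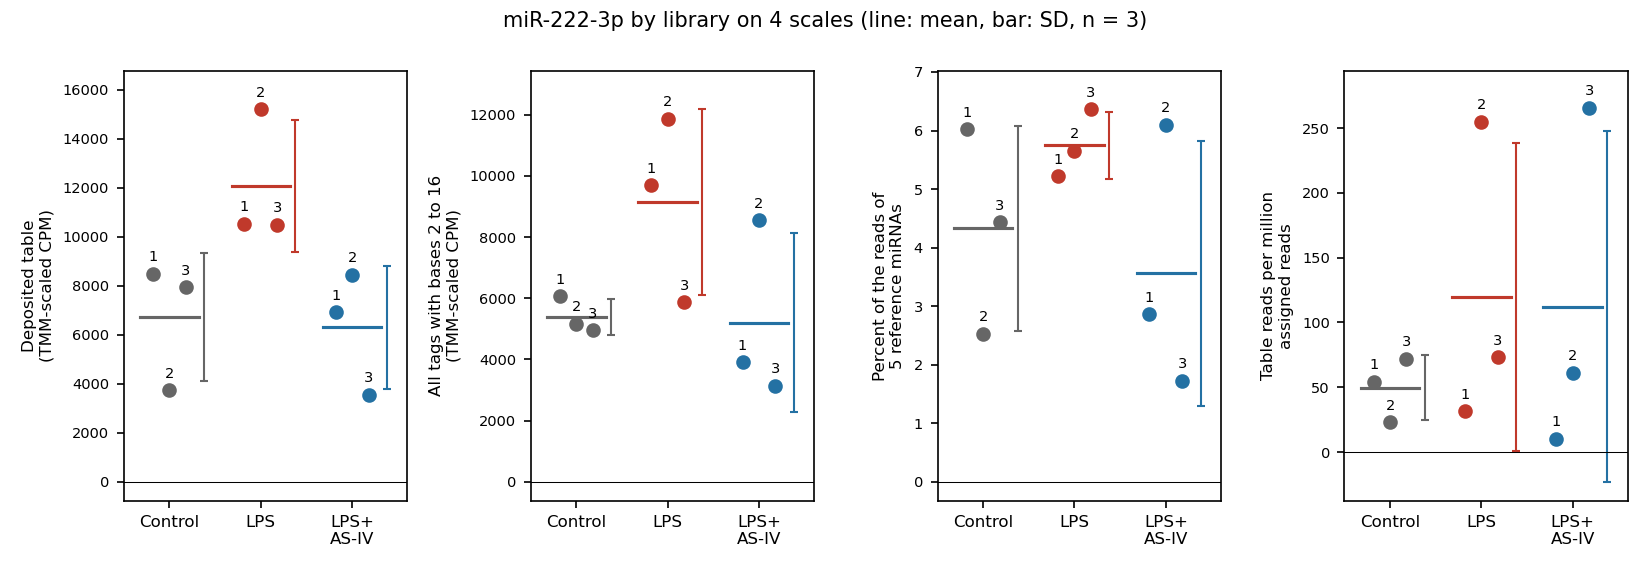
miR-222-3p in each of the 9 libraries (numbered points) on 4 scales: CPM of the deposited table, CPM from all tags with bases 2 to 16, percent of the reads of 5 reference miRNAs, and table reads per 1e6 assigned reads. Lines are group means and bars are SD (n = 3). The LPS libraries stand clear of the other groups in the first panel (10502 CPM or more) and overlap with them in the 3 others.

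The separation of the LPS group depended on what the level was set against. As a percent of the summed reads of 5 miRNAs often used as vesicle references (miR-423-3p, miR-191a-5p, miR-103-3p, miR-16-5p and miR-24-3p), miR-222-3p came to 6.02, 2.53 and 4.44 in Control 1 to 3. It came to 5.22, 5.65 and 6.36 in LPS 1 to 3, and to 2.86, 6.10 and 1.72 in LPS+AS-IV 1 to 3. The mean was highest in LPS, but Control 1 and LPS+AS-IV 2 lay within the LPS range.

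Set against all assigned reads, most of which lie outside the miRNA table, the libraries ranged more widely. The table reads per 1e6 assigned reads were 54.4, 22.9 and 71.9 for Control, 31.5, 254.9 and 73.3 for LPS, and 10.1, 61.0 and 265.5 for LPS+AS-IV. The groups overlapped, and LPS 2 and LPS+AS-IV 3 stood far above their group's other libraries. On this scale the log2 fold change of LPS+AS-IV against LPS shrank to -0.095 and that of LPS+AS-IV against Control turned to 1.17, while that of LPS against Control was 1.27. In vesicle RNA, fewer vesicles of a kind and less of the miRNA per vesicle cannot be told apart.

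The tags showed that the table held only part of the miR-222-3p reads. All tags with bases 2 to 16 of the mature sequence came to 8072 reads over the 9 libraries, and 5375 of them had the label mature and were in the table. A further 1047 reads had the label hairpin, for which the files give a score of 1 where mature tags have 0, also for tags that follow the RefSeq hairpin to their last base. Another 1650 reads had been given to the Rfam family RF00651, and none to a piRNA. In all, 33.4% of the reads with the letters of miR-222-3p lay outside the table.

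The label went with the length of the tag. Of 4206 reads of 24 nt, 4195 were labelled mature. Of 1627 reads of 23 nt, 1626 were labelled with the Rfam family. Of 963 reads of 22 nt, 959 were labelled hairpin. The mature strand in RefSeq has 21 nt, and that exact form gave 21 reads, of which 20 were in LPS 1. The tags below carried most of the reads. Capitals mark bases at the 3′ end that differ from the hairpin.
24 nt, mature: agctacatctggctactgggtctc
25 nt, mature: agctacatctggctactgggtctct
23 nt, Rfam: agctacatctggctactgggtct
23 nt, Rfam, A at the end: agctacatctggctactgggtcA
24 nt, mature, T at the end: agctacatctggctactgggtctT
22 nt, hairpin, T at the end: agctacatctggctactgggtT
25 nt, mature, A at the end: agctacatctggctactgggtctcA
22 nt, hairpin: agctacatctggctactgggtc
The first of these continues the RefSeq strand by 3 bases of the hairpin and was the commonest tag, with 3139 reads.

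The reads outside the table were unevenly spread over the libraries. In Control 1 to 3 the table held 393 of 509, 125 of 280 and 591 of 603 reads. In LPS 1 to 3 it held 293 of 419, 888 of 1152 and 655 of 657. In LPS+AS-IV 1 to 3 it held 96 of 99, 555 of 1012 and 1779 of 3341. LPS 3, Control 3 and LPS+AS-IV 1 had nearly all of their reads in the table, while Control 2 had fewer than it had outside.

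**Figure D2:**
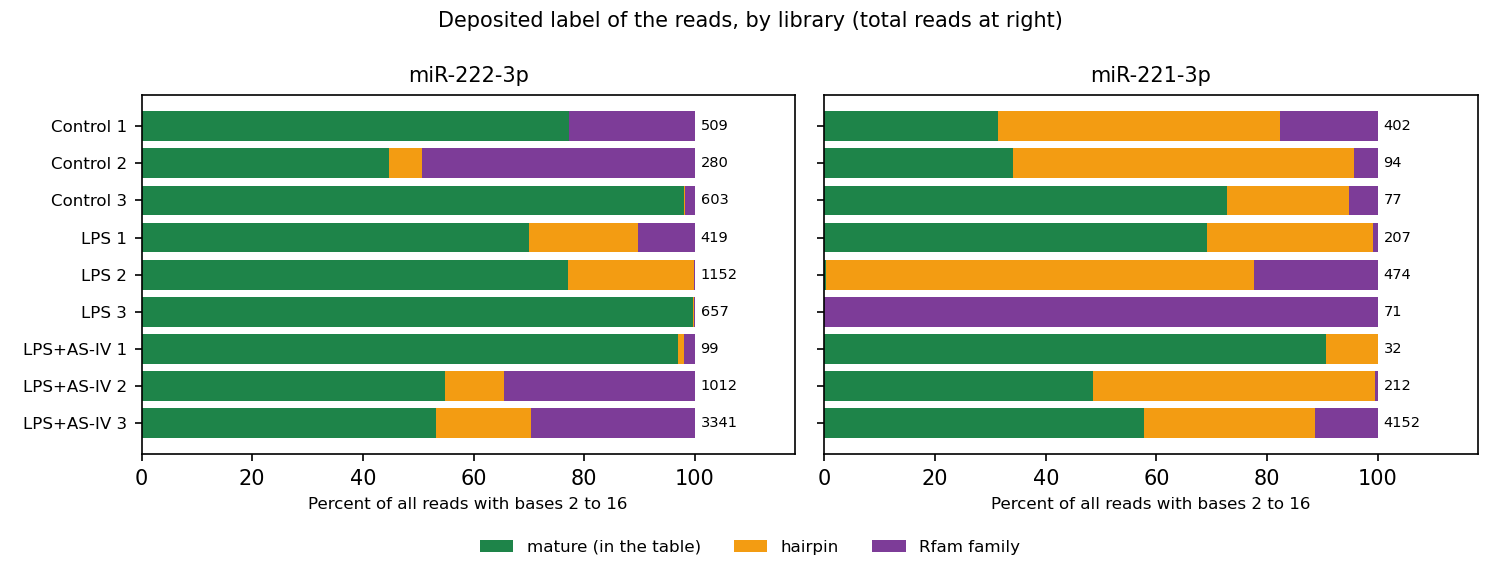
Share of the reads with bases 2 to 16 of miR-222-3p (left) and miR-221-3p (right) under each deposited label, by library, with the total reads at the right of each bar. LPS 3 had 655 of 657 reads of miR-222-3p in the table but 0 of 71 reads of miR-221-3p.

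When every RefSeq miRNA was counted from all of its tags, miR-222-3p kept its highest mean CPM in LPS, but the groups overlapped. This way of counting was chosen after the labels had been seen. The levels were then 6061, 5165 and 4957 CPM for Control, 9688, 11863 and 5874 CPM for LPS, and 3908, 8552 and 3139 CPM for LPS+AS-IV. LPS 3 fell below Control 1 and LPS+AS-IV 2. The means were 5394 ± 587 CPM for Control, 9142 ± 3031 CPM for LPS and 5199 ± 2928 CPM for LPS+AS-IV (SD, n = 3 per group). The log2 fold change was 0.76 in LPS against Control, -0.81 for LPS+AS-IV against LPS and -0.052 for LPS+AS-IV against Control. Control 2, the lowest Control library in the table, came close to the other Control libraries, and the SD of the Control group on the log2 scale went from 0.658 to 0.153. That of LPS went from 0.306 to 0.522.

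The 3′ ends of miR-222-3p varied from library to library. Tags that follow the hairpin to their last base gave 455 of 509, 206 of 280 and 515 of 603 reads in Control 1 to 3. They gave 315 of 419, 474 of 1152 and 653 of 657 reads in LPS 1 to 3, and 60 of 99, 910 of 1012 and 1054 of 3341 reads in LPS+AS-IV 1 to 3. LPS 2 and LPS+AS-IV 3 were the libraries where such tags gave fewer than the other tags.

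The remaining reads ended mostly in 1 to 3 bases of A or T that the hairpin does not have at that place. Bases added to the 3′ end by nucleotidyl transferases are a known feature of mature miRNAs. A base added and a base changed at the last position look the same in these tags. Reads with such ends numbered 49, 67 and 84 for Control, 22, 673 and 2 for LPS, and 36, 99 and 2277 for LPS+AS-IV. A single A was on 1570 reads over 6 libraries and a single T on 1655 reads over 6 libraries. The tag ending in a single A after 22 hairpin bases gave 982 of its 984 reads in LPS+AS-IV 3, all outside the table, and the 119 reads of the 22 nt tag with A at the end came from LPS 2 alone.

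**Figure D3:**
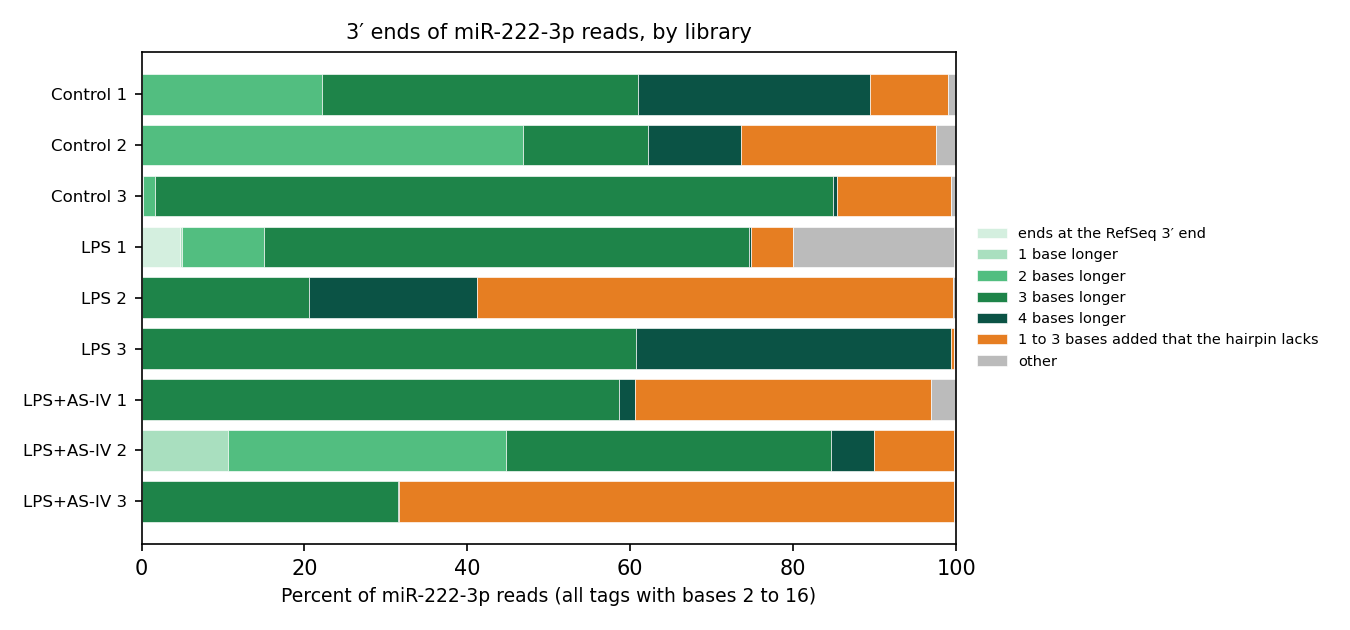
Percent of miR-222-3p reads (all tags with bases 2 to 16) by 3′ end, in each library. Green shades are tags that follow the hairpin to 0 to 4 bases past the RefSeq 3′ end, orange is tags with 1 to 3 bases of A or T that the hairpin lacks, and grey is other tags. The tag that is 3 bases longer (24 nt) is present in all 9 libraries, while the orange share runs from 2 of 657 reads in LPS 3 to 2277 of 3341 reads in LPS+AS-IV 3.

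Few distinct tags stood behind each level. There were 86 counts of a tag in a library, of which 46 were of 1 to 3 reads, 3 of 4 to 15 reads and 37 of 16 or more reads. Those 37 counts held 8001 of the 8072 reads. LPS 3, LPS+AS-IV 1 and Control 3 each had 2 tags of 16 or more reads, and LPS 2 had the most with 7. The 24 nt tag that follows the hairpin was found in all 9 libraries, at 197, 43 and 502 reads for Control, 250, 236 and 399 for LPS, and 58, 404 and 1050 for LPS+AS-IV. Its 25 nt extension was also in all 9, but with 145, 32 and 3 reads for Control, 1, 237 and 254 for LPS, and 2, 53 and 4 for LPS+AS-IV. LPS 1 had 81 reads of a 25 nt tag with base changes near its 3′ end, agctacatctggctactgtgtctta, labelled hairpin, which had 5 reads in Control 2 under the Rfam label and none elsewhere.

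The 5′ end, which sets the seed, was nearly constant among the tags counted. Only tags with bases 2 to 16 were counted, so tags starting after base 2 could not be seen. All mature and hairpin reads began with the first base of the RefSeq strand in the 9 libraries. Among all tags with bases 2 to 16 that share was at least 99.6% in every library.

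Measures of the tag makeup, which do not use the level, did not separate the groups. The commonest tag held 56.5% ± 25.9 of the table's miR-222-3p reads in Control, 57.6% ± 29.5 for LPS and 64.1% ± 7.58 for LPS+AS-IV (SD, n = 3 per group). The hairpin label was on 4.05% ± 6.86, 14.98% ± 12.8 and 13.9% ± 11.9 of the mature and hairpin reads in the same order. The mean tag length was 24.40 ± 0.28, 24.12 ± 0.26 and 23.94 ± 0.44 nt. Over 4 measures and 3 comparisons the smallest two-sided exact permutation p was 0.2, for the hairpin label in LPS+AS-IV against Control, with an adjusted p of 0.9. Groups of 3 cannot give a p under 0.1.

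Reads longer than the RefSeq strand set miR-222-3p apart in a descriptive ranking. Among 64 miRNAs with at least 1000 reads from all tags, its mean tag was 2.71 nt longer than the RefSeq strand, the second highest after miR-328b-3p, and the median over the 64 was 0.132 nt. The exact RefSeq form made up 0.26% of its reads, against a median of 24.7%, and stood at rank 7 from the lowest share. The share of reads labelled mature was 66.6%, above the median of 42%.

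miR-221-3p, the seed partner from the neighbouring hairpin, was less abundant in the table. Its table reads numbered 126, 32 and 56 for Control, 143, 1 and 0 for LPS, and 29, 103 and 2398 for LPS+AS-IV. In the edgeR fit LPS against Control gave a log2 fold change of 0.22 (SE 1.91, adjusted p = 0.964), LPS+AS-IV against LPS gave 0.72 (SE 1.91, adjusted p = 0.963) and LPS+AS-IV against Control gave 0.93 (SE 1.92, adjusted p = 0.981). None passed the test. Without LPS 1 the log2 fold change turned to -7.26 in LPS against Control and became 8.06 for LPS+AS-IV against LPS, with 1 read left in the LPS group.

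miR-221-3p was present in LPS 2 and LPS 3 under other labels. LPS 2 had 317 reads of a 22 nt tag that stops 1 base before the RefSeq end, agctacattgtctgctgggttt, labelled hairpin. LPS 3 had 71 reads of a 21 nt tag, agctacattgtctgctgggtt, labelled with the Rfam family. Over the 9 libraries 49.5% of the 5721 reads with bases 2 to 16 of miR-221-3p lay outside the table.

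From all tags, the reads of miR-221-3p numbered 402, 94 and 77 for Control, 207, 474 and 71 for LPS, and 32, 212 and 4152 for LPS+AS-IV. Its level was 2385 ± 2152 CPM for Control, 3434 ± 2425 CPM for LPS and 2318 ± 1396 CPM for LPS+AS-IV (SD, n = 3 per group), and the groups overlapped. The edgeR fit of all tags gave 0.53 (SE 0.93, adjusted p = 0.995) as the log2 fold change of LPS against Control, -0.56 (SE 0.93, adjusted p = 0.959) for LPS+AS-IV against LPS and -0.037 (SE 0.93, adjusted p = 0.991) for LPS+AS-IV against Control. In both comparisons with LPS+AS-IV the sign turned from that in the table. In the table the SE was about 2 times as large.

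miR-222-3p exceeded its partner in all libraries but LPS+AS-IV 3. From all tags its reads were 1.27, 2.98 and 7.83 times those of miR-221-3p in Control, 2.02, 2.43 and 9.25 times for LPS, and 3.09, 4.77 and 0.805 times for LPS+AS-IV. The 5p strands were nearly absent. No tag held bases 2 to 16 of miR-222-5p, which allows up to 3 reads per library, and 1 read in LPS+AS-IV 3 held those of miR-221-5p.

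A list of miRNAs known to respond to LPS in macrophages was described beside miR-222-3p, which itself was not tested. The list held 17 names besides miR-222-3p, of which 13 were in the table and 11 had enough reads to be tested. In LPS against Control 5 of the 11 had higher and 6 lower fitted levels, with a median log2 fold change of -0.0095, beside 45 of 94 higher and a median of -0.038 over all tested miRNAs. In LPS+AS-IV against LPS 6 of the 11 were fitted higher, with a median of 0.12, beside 57 of 94 and 0.19 over all. In LPS+AS-IV against Control it was 7 of the 11 and 0.11, beside 54 of 94 and 0.21. None of the 11 passed edgeR's test over all miRNAs in either direction in the 3 comparisons. These values rest on table reads, which hold an uneven part of each miRNA. Where it was computed for tested members, the share labelled mature ran from 5.3% for miR-21-5p to 86.1% for miR-99b-5p. The fitted directions and medians are thus those of the table only. With all miRNAs counted by bases 2 to 16, edgeR called 0 of 110 in each comparison.

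miR-155-5p, a miRNA induced by Toll-like receptor signals that sustains inflammation, was counted 0, 26 and 0 times for Control, 227, 2 and 234 for LPS, and 74, 225 and 0 for LPS+AS-IV. In the edgeR fit LPS against Control gave 3.96 on the log2 scale (SE 2.59, adjusted p = 0.854), and LPS+AS-IV against LPS gave -0.45 (SE 2.29, adjusted p = 0.963). LPS 2 lay below Control 2 in reads, so the groups overlapped. It too had many reads outside the table. From all tags its reads numbered 176, 186 and 178 for Control, 686, 275 and 973 for LPS, and 198, 633 and 0 for LPS+AS-IV. On the CPM scale LPS 2, at 2832, lay below Control 2, at 3431, so these groups overlapped too.

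miR-146a-5p, which restrains Toll-like receptor signalling by repressing Traf6 and Irak1, stood at 27353 ± 11989 CPM for Control, 20601 ± 7331 CPM for LPS and 34718 ± 29518 CPM for LPS+AS-IV (SD, n = 3 per group). Its groups overlapped. For LPS against Control the log2 fold change of -0.41 (SE 0.65) did not pass edgeR's test (adjusted p = 0.964). From all tags it was counted together with its relative miR-146b-5p. The pair stood at 37831, 35456 and 23551 CPM for Control and 43979, 13974 and 41057 CPM for LPS, so no lower level in LPS was seen there. In the table miR-146b-5p was counted 0, 31 and 2 times for Control, 0, 164 and 357 for LPS, and 21, 63 and 0 for LPS+AS-IV. miR-181a-5p, the most abundant of the list, stood at 101699 ± 13168 CPM for Control and 134399 ± 24536 CPM for LPS (SD, n = 3 per group; log2 fold change 0.40, SE 0.30, edgeR adjusted p = 0.854). In the table miR-125a-5p was counted 1, 82 and 94 times for Control and not at all in LPS. It was counted 64 times in LPS+AS-IV 2 but in no other LPS+AS-IV library, so its fitted change has no definite size. From all tags it had 4138 reads over the 9 libraries, of which 5.8% were labelled mature. Its lack of table reads thus does not show its absence from LPS. miR-99b-5p, which comes from the same cluster as miR-125a, stood between 1181 and 5656 CPM in the 9 libraries (log2 fold change -0.70, SE 1.02, edgeR adjusted p = 0.981 for LPS+AS-IV against Control).

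**Figure D4:**
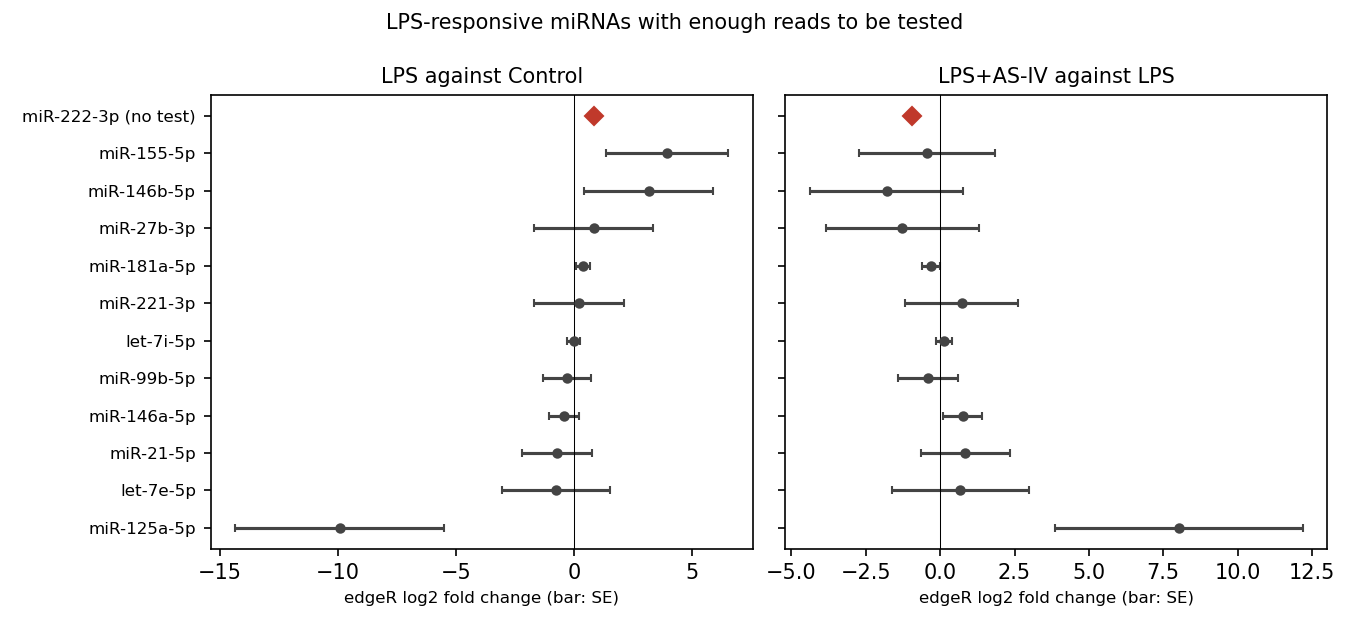
edgeR log2 fold changes (points) with their SE (bars) for the 11 tested miRNAs of the LPS-responsive list in LPS against Control (left) and LPS+AS-IV against LPS (right), with miR-222-3p (diamond, no test) on top. The diamond lies at 0.85 and -0.94. No bar belongs to a miRNA that passed the test, and miR-125a-5p, at the far ends, had no table reads in LPS.

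The miRNAs whose level varied most like that of miR-222-3p were in part sparsely counted. By Pearson r of log2(CPM + 1) over the 9 libraries, the 5 highest of 93 were let-7e-5p (0.719), miR-30b-5p (0.672), miR-532-3p (0.557), miR-149-5p (0.527) and miR-34a-5p (0.525), with a median of 0.0037 over the 93. These are descriptions over libraries that share a group and a sequencing depth. The 5 were picked for following a miRNA chosen as highest in LPS, so a higher level in LPS is partly built into the choice. let-7e-5p was at rank 7 by Spearman rho, and the other 4 stayed within the first 5. miR-30b-5p was counted 0, 0 and 1 times for Control, 16, 49 and 99 for LPS and 15, 1 and 1 for LPS+AS-IV. Its LPS libraries lay above its Control libraries, as in 7.45% of all tested miRNAs, but edgeR's test was not passed (adjusted p = 0.662). miR-532-3p had no reads in 6 of the 9 libraries.

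Of these 5, miR-34a-5p, a miRNA of the p53 pathway, and miR-149-5p had reads in every library. miR-34a-5p stood at 4410 ± 1414 CPM for Control, 10109 ± 3226 CPM for LPS and 9457 ± 10982 CPM for LPS+AS-IV (SD, n = 3 per group). Each LPS library lay above each Control library, which is again partly built into the choice. The log2 fold change of 1.20 (SE 0.81) did not pass edgeR's test (adjusted p = 0.854). miR-149-5p stood at 3262 ± 1437, 4216 ± 1148 and 2388 ± 965 CPM in the same order, with overlapping groups. miR-221-3p had an r of -0.503 with miR-222-3p in the table and of 0.354 when both were counted from all tags.

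Marker miRNAs of several cell types were described, but their levels do not settle which cells the vesicle RNA came from. Of the myeloid markers, miR-142-3p was not in the table and miR-223-3p had 0 table reads in LPS 1, LPS 2 and LPS+AS-IV 1. From all tags miR-223-3p was present in every library. Its level was 5561, 6752 and 8163 CPM in Control 1 to 3, 5896, 2358 and 7153 CPM in LPS 1 to 3, and 1066, 2467 and 5030 CPM across the LPS+AS-IV libraries in order. LPS 1, at 0 in the table, thus lay within the Control range. From all tags miR-142-3p had 81 reads in Control 3, 14 in LPS 1 and none elsewhere. Sums of table reads leave out the other labels and so hold only part of the marker reads. In the table the 2 myeloid markers present, miR-223-3p and miR-142-5p, together ranged from 329 to 1943 CPM for Control, 0 to 4265 for LPS and 0 to 1888 for LPS+AS-IV. The lymphocyte markers miR-150-5p and miR-342-3p together ranged from 26685 to 37066 CPM, 23388 to 32548 CPM and 15795 to 46998 CPM in the same order. Most of each sum was miR-150-5p. miR-342-3p had only 54, 0 and 1 table reads for Control, 0, 1 and 110 for LPS, and 0, 67 and 1322 for LPS+AS-IV.

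In the table markers of 3 other cell types, summed where several were listed, had ranges that did not overlap between Control and LPS. Of all single miRNAs 11.7% lay below and 7.45% above. These shares are a like background only for the single marker miR-122-5p, not for sums. The endothelial markers miR-126a-3p and miR-126a-5p together spanned 6870 to 12608 CPM for Control, 1924 to 5307 CPM for LPS and 4616 to 12866 CPM for LPS+AS-IV. The erythroid markers miR-451-5p, miR-144-3p and miR-486 spanned 37514 to 48569 CPM, 28283 to 36378 CPM and 32165 to 38663 CPM in that order. The hepatocyte marker miR-122-5p spanned 1434 to 3238 CPM, 3561 to 8816 CPM and 4099 to 6203 CPM, and so was the one that lay higher in LPS. None of their 4 tested members passed edgeR's test for LPS against Control. The log2 fold change was -1.64 for miR-126a-3p (SE 0.68, adjusted p = 0.662), 1.56 for miR-122-5p (SE 0.78, adjusted p = 0.662), -2.98 for miR-486 (SE 2.05, adjusted p = 0.854) and -0.18 for miR-451-5p (SE 0.31, adjusted p = 0.964). By itself miR-451-5p, the most abundant erythroid marker, overlapped between Control (27449 to 40371 CPM) and LPS (28283 to 33391 CPM). miR-486 did not, with 6196 to 10036 CPM for Control and 0 to 2986 CPM for LPS. Epithelial and mesothelial markers reached at most 216, 1259 and 1082 CPM in the 3 groups, with 4 of 5 in the table and miR-141-3p absent from it. Fibroblast and smooth muscle markers reached at most 956, 609 and 3528 CPM, with 3 of 4 in the table and miR-214-3p absent from it. All these marker sums use table reads only. Counted from all tags, miR-126a-3p stood at 9038, 6955 and 11936 CPM in Control 1 to 3. It stood at 3283, 3635 and 3192 CPM in LPS 1 to 3, and at 3000, 7943 and 3605 CPM in LPS+AS-IV 1 to 3. From all tags miR-199a-3p had 14651 reads over the 9 libraries, of which 12.6% were labelled mature. miR-143-3p had 2150, of which 0.093% were labelled mature. A low sum in the table thus does not show that a marker was scarce. The part of other cells, or of the serum in the medium, in these levels and in that of miR-222-3p was not tested.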

How the data were processed

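Small RNA of exosomes was sequenced on the BGISEQ-500 platform, per the labels' protocols. The deposited series table holds read counts per mature miRNA without normalization, per the file headers. Its exp columns, whole numbers never above the reads, are of unstated origin and entered 1 alternative only. The deposited library files hold the count and label of each tag, and a score, per the file headers, that is the number of mismatches for miRNA tags. Bowtie2 and Rnor_6.0 are named in the submitters' processing notes, without a role. For trimming and the miRNA reference, the tool and version were not given in the sources used here. The table count of miR-222-3p equalled its mature tags in all 9 libraries.

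Counts were fitted with edgeR 4.0.16 (R 4.3.3; glmQLFit, glmQLFTest) with TMM factors, filterByExpr, group as the term, 1 fit over 9 libraries and 94 miRNAs, and Benjamini-Hochberg adjusted p under 0.05. DESeq2 1.42.0 was an alternative. SE is the absolute log2 fold change divided by the square root of F. The fit was tested on simulated data. Tag makeup was compared with exact permutation tests. Sequences are from RefSeq (GRCr8), where 182 of the 201 table names were found. All-tag counts took every tag with bases 2 to 16 of a RefSeq strand, merging names that share them, and tested 110 miRNAs.

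miRNAs were named by a rule: miR-222-3p, the other strands of both hairpins, up to 4 list members per comparison with the smallest unadjusted p, miR-146a-5p, miR-155-5p, the 5 most alike, tested markers and any called. miR-328b-3p was named after its values were seen. The miRNA and the lists were chosen with earlier results of these data known. A count of 0 allows up to 3 reads. The limit covers counting error only, since reads of PCR copies with no molecular identifier in the files cannot be taken as independent molecules.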

Additional observations from a re-analysis of the deposited data

How the results depend on the processing

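The log2 fold change of miR-222-3p kept its direction in LPS against Control under every alternative run, and in LPS+AS-IV against LPS likewise. With all assigned reads as the library size it was -0.095 in LPS+AS-IV against LPS and 1.17 in LPS+AS-IV against Control, where the sign turned. Leaving out 1 library at a time gave 0.57 to 1.24 in LPS against Control, -1.22 to -0.81 in LPS+AS-IV against LPS and -0.42 to 0.11 in LPS+AS-IV against Control. The number of miRNAs called in LPS against Control, 1 as reported, was 2 with library totals, without a filter and with the exp values, 3 with DESeq2, and 0 with each tag given to 1 miRNA or with all miRNAs counted by bases 2 to 16. In LPS+AS-IV against LPS edgeR called 0, with 3 at an unadjusted p under 0.05, and DESeq2 and the fit without a filter called 1. In LPS+AS-IV against Control the 2 calls became 0 both when a tag could go to only 1 miRNA and when bases 2 to 16 were counted. Leaving out 1 library gave 1 to 3, 0 to 1 and 2 to 3 calls in the 3 comparisons. The calls as reported were let-7a-5p and miR-3596a, whose tags the files name differently between libraries. DESeq2 called miR-128-3p as well in LPS against Control, and it was its 1 call in LPS+AS-IV against LPS. For the other changes the cause was not tested.

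The sign of the log2 fold change of miR-221-3p turned in several settings. It was -0.94 with assigned reads in LPS against Control, -0.20 with mature and hairpin tags in LPS+AS-IV against LPS, and with bases 2 to 16 it was -0.56 in LPS+AS-IV against LPS and -0.037 in LPS+AS-IV against Control. Leaving out 1 library gave -7.26 to 1.26 in LPS against Control, where LPS 1 decided the sign, -0.22 to 8.06 in LPS+AS-IV against LPS and 0.22 to 1.83 in LPS+AS-IV against Control. Several differences in tag makeup turned sign. For the commonest tag, all tags gave -3.65 percentage points in LPS+AS-IV against LPS and -2.46 in LPS+AS-IV against Control, and leaving out 1 library gave -12.7 to 16.6 in LPS against Control, -9.04 to 20.3 in LPS+AS-IV against LPS and -3.46 to 21.8 in LPS+AS-IV against Control. For the hairpin label in LPS+AS-IV against LPS it gave -8.48 to 5.38 points. The mean length differed by 0.051 nt in LPS against Control with all tags, and by -0.41 to 0.026 nt in LPS+AS-IV against LPS without 1 library.

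No sign of pairing by replicate number was seen: 9 correlations of same-numbered libraries ran from -0.0848 to 0.168. With 3 libraries per group, and labels that do not say, they cannot exclude a pairing. With a replicate block the log2 fold change of miR-222-3p was 0.82, -0.97 and -0.15 in the 3 comparisons, that of miR-221-3p in LPS against Control was -2.50, and the calls were 2 in LPS against Control and 1 in LPS+AS-IV against LPS.

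Depth limits the small libraries most: in LPS+AS-IV 1, with 15426 table reads, a count of 0 allows up to 3 reads, which is 194.5 per 1e6 table reads.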
